A study of Mus musculus with 4 samples.

Results

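The genes described here are 50 members of the transforming growth factor beta (TGF-β) and bone morphogenetic protein (BMP) pathways: 17 ligands, 13 receptors, 8 SMAD genes, 4 antagonists, 4 latent TGF-β binding proteins and 4 Id genes. They were picked by name, and each was given the TLE3 regions within 50 kb of its transcription start site for which the deposited tables named it as the nearest gene. By this rule 45 of the 50 members had a region, 178 regions in all, out of 69599 regions in the 3 depots together and 13381 genes with a region within 50 kb. TLE3 is a corepressor of the Groucho family, which does not bind DNA itself and is brought to chromatin by transcription factors. It was mapped by chromatin immunoprecipitation followed by sequencing (ChIP-seq), as part of work on TLE3 loss in beige adipocytes.

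There were 3 TLE3 libraries, 1 each from adipocytes of brown fat (BAT, with interscapular, cervical and axillary depots pooled), epididymal white fat (eWAT) and inguinal white fat (iWAT), and 1 input library without antibody, from iWAT adipocytes. All cells came from male NMRI mice aged 4 to 5 weeks, 10 to 15 mice per pool, and no genotype or agent set the groups apart. Cells of the stromal-vascular fraction were turned into adipocytes in a medium with insulin (30 nM) and the PPARγ agonist rosiglitazone (1 µM), and taken on day 8. Cultures were used where over 50% of the cells had differentiated, so undifferentiated cells could remain. Chromatin was crosslinked with 2 mM disuccinimidyl glutarate for 15 min and 1% formaldehyde for 30 min. With 1 library per depot, depot and library cannot be told apart, and no difference below has a replicate check.

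Ligands of this family are secreted, often held latent in the matrix, and bring together type I and type II receptor kinases on the target cell. The receptors phosphorylate SMAD proteins, SMAD2 and SMAD3 for TGF-β and activin and SMAD1, SMAD5 and SMAD9 for BMP, which enter the nucleus with SMAD4, while SMAD6 and SMAD7 inhibit the pathway. In fat, TGF-β signalling through SMAD3 is known to restrain adipocyte differentiation, whereas BMP4 and BMP7 are known to commit precursors to the white and brown fat lineages.

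Values are reads in a region of 230 bp, which the authors brought to one common total for all libraries ("scaled reads"). One read was worth 2.77 scaled reads in BAT, 0.883 in eWAT, 0.526 in iWAT and 0.651 in the input. On the assumption of a scale of 10 M reads, the BAT library held 3.62 M reads, the eWAT library 11.3 M, the iWAT library 19.0 M and the input 15.4 M. The BAT list was the shortest, with 15042 regions against 51015 in eWAT and 50456 in iWAT, and its lowest listed value of 16.6 scaled reads rested on 6 reads. A value of 0 in BAT allows up to 8.30 scaled reads (3 reads). All intervals are 95% intervals of counting error alone, and reads in which duplicates may remain are not independent molecules. Marker genes of adipocytes had TLE3 regions in each depot, although TLE3 signal does not measure expression. For comparison, the BAT list reached 21.4% of all protein-coding genes, the eWAT list 46% and the iWAT list 42.4%. Because the lists differ in length, marker counts cannot be compared directly between depots, and cell content was not tested. Of 10 adipocyte markers, 9 had a listed region in BAT, 10 in eWAT and 9 in iWAT, and of 10 brown fat markers 6 did in BAT, 8 in eWAT and 8 in iWAT, with no region at Prdm16. Of 8 endothelial markers, 5 had one in BAT, 5 in eWAT and 6 in iWAT. Of 9 macrophage markers, 1 had one in BAT, 8 in eWAT and 3 in iWAT. Of 10 fibroblast markers, which undifferentiated stromal cells carry, 6 had one in BAT, 9 in eWAT and 8 in iWAT.

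TLE3 regions were frequent near the pathway's genes. In BAT, 24 of the 50 members (48%, Wilson interval 34.8 to 61.5%) had at least 1 listed region, against 21.4% of 21900 protein-coding genes. In eWAT 43 members had one (86%, 73.8 to 93.0%), against 46% of all genes. In iWAT 39 members had one (78%, 64.8 to 87.2%), against 42.4% of all genes. In such bulk libraries, fewer cells with TLE3 at a region and less TLE3 per cell cannot be told apart. When all 3 lists were cut to the 15042 strongest regions, 24 of the 50 members had a listed region in BAT (against 4696 of 21900 genes, 21.4%). In eWAT 22 of the 50 then had one (against 4752 of 21900, 21.7%), and in iWAT 19 of the 50 (against 4225 of 21900, 19.3%). The cut lists ended at 16.6 scaled reads for BAT, at 53.0 for eWAT and at 53.6 for iWAT. Members were longer than other genes, with a median length of 35.3 kb against 17.1 kb for all protein-coding genes, and the part of length in these shares was not tested. Members with a region had a median of 3 regions, and all protein-coding genes with a region had a median of 2. Ltbp1 had the most of the members, with 14, while 11 members had a single region.

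No region within 50 kb was assigned to 5 members. Acvrl1 and Eng, receptor genes best known from endothelium, and Smad4, the partner shared by all receptor-activated SMADs, had no region assigned at any distance. Each region is assigned to its nearest gene only. Regions close to these genes may therefore be assigned to a neighbouring gene. Bmp7, a ligand known to promote brown fat formation, and Inhba, which encodes an activin subunit, had regions only beyond 50 kb. The limit of 50 kb left out 214 regions of 26 members. The 3 regions just inside it lay 49.9 and 49.7 kb from a start of Ltbp1 and 49.7 kb from that of Tgfbr1. The first of these had 2.77 scaled reads in BAT, against 54.8 in eWAT and 53.6 in iWAT. Just outside it lay a region of Bmp6 at 51.0 kb, with 2.77 in BAT, against 21.2 in eWAT and 31.0 in iWAT, one of Ltbp1 at 51.0 kb and one of Tgfb3 at 51.6 kb.

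**Figure D1:**
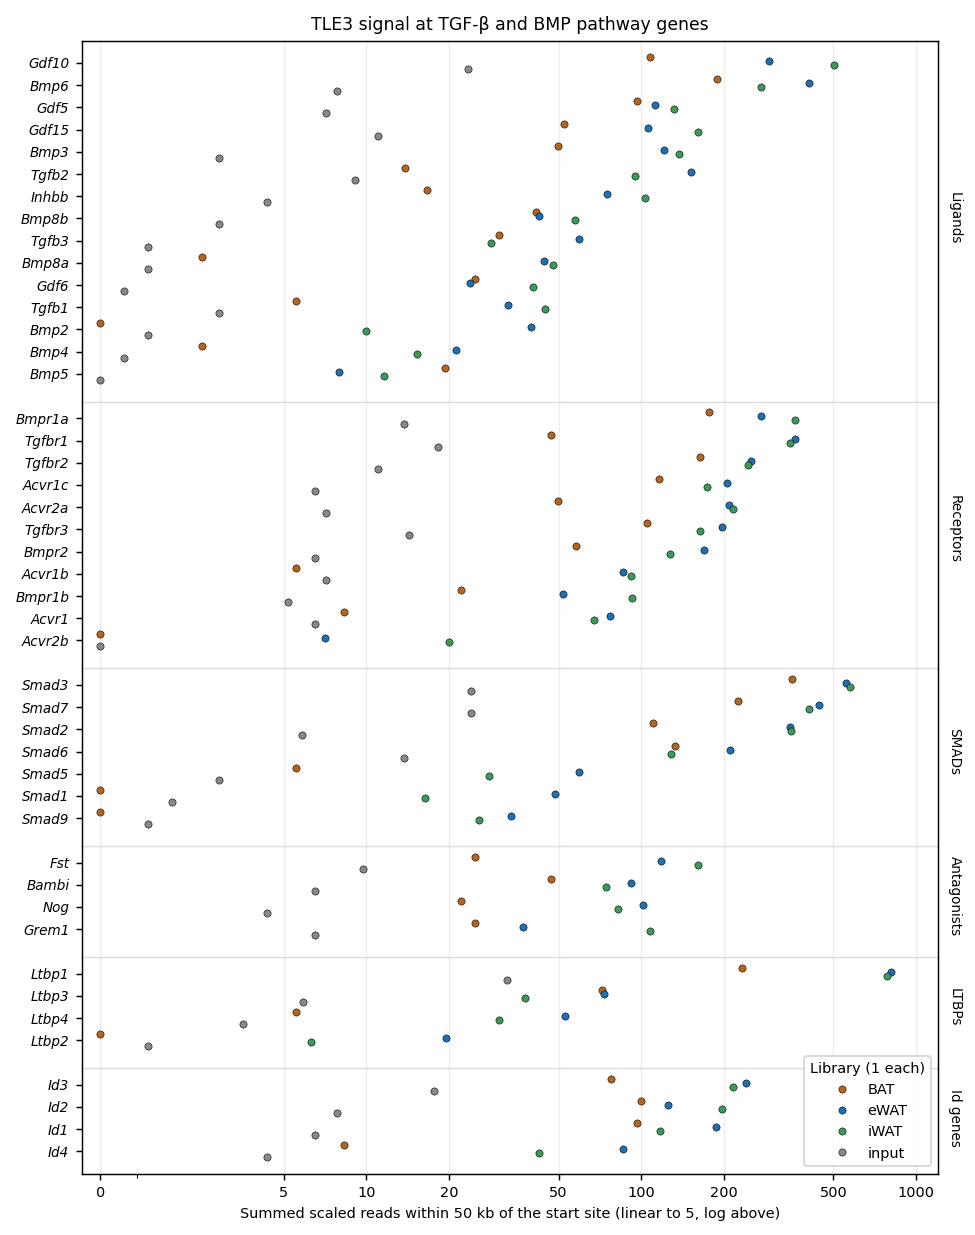
Summed scaled reads of TLE3 ChIP-seq over the regions within 50 kb, for the 45 members with a region, ordered by role (rows). Each point is 1 library (BAT, eWAT, iWAT or input), and the x axis is linear to 5 and logarithmic above. The BAT point lies left of both white fat points in most rows, but Bmp5 has its highest point in BAT, with 19.4 scaled reads.

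Of the 178 member regions, 34 (19.1%) were listed in all 3 depots, against 15.9% of the 39602 regions within 50 kb of any gene. Regions listed in BAT alone numbered 9 (5.06%, against 3.52%). Those listed in both eWAT and iWAT but not in BAT numbered 60 (33.7%, against 33.8%). Another 38 were listed in eWAT alone (21.3%, against 25.4%) and 28 in iWAT alone (15.7%, against 18.8%). BAT and eWAT shared 7 that iWAT lacked (3.93%, against 1.28%), and BAT and iWAT shared 2 that eWAT lacked (1.12%, against 1.22%). A region missing from a list still often carried reads: 13 of the 126 member regions not listed in BAT, 11 of 39 not listed in eWAT and 19 of 54 not listed in iWAT reached the lowest listed value of that library. Each of these values lay under 10 times its input value, a limit that every listed region met. At 29 member regions (16.3%) the BAT library had 0 reads, while both white fat libraries had reads at every member region.

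TLE3 stood mostly in introns and far from the members' start sites. Introns held 100 of the 178 regions (56.2%, 48.8 to 63.3%), against 51.3% of all regions within 50 kb, and intergenic sequence held 66 (37.1%, against 40.8%). Only 8 regions (4.49%) lay within 1 kb of a start site, against 5.30%, and the median distance was 18.5 kb, against 15.5 kb. Promoters held 6 regions (3.37%, against 3.69%), those of Gdf5, Id2, Id3, Ltbp1, Ltbp3 and Smad7.

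The promoters of Id2, Id3, Ltbp1 and Ltbp3 are shown, because TLE3 was read directly at or just upstream of these starts. The bases before the start are from RefSeq's GRCm38.p6 annotation (35 of the 50 members are in the promoter table used here, with 45 promoters), while the TLE3 regions are in mm9 and were placed by their distance to the start. The Ltbp1 region reached from 188 bases before its start to 42 after it, and the bases it covers upstream are printed, from the RefSeq start whose spacing to the gene's other start matched the deposited distances. The other 3 regions lay farther upstream than the 250 bases shown, from 766 to 536 bases before the Id2 start, 607 to 377 before the Id3 start and 524 to 294 before the Ltbp3 start. Capitals mark CAGAC, the SMAD-binding element, and GGCGNC, the GC-rich SMAD motif, or their reverse complements GTCTG and GNCGCC. The 4 sequences lie at chr12:25096093-25096342 (minus strand, Id2), chr4:136143572-136143821 (plus, Id3), chr17:75178593-75178780 (plus, Ltbp1) and chr19:5740650-5740899 (plus, Ltbp3).
Id2: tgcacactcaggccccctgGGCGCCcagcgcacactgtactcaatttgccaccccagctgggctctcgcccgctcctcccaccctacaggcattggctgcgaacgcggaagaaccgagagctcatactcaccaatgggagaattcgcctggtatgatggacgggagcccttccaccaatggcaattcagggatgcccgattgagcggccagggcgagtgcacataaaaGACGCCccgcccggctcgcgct
Id3: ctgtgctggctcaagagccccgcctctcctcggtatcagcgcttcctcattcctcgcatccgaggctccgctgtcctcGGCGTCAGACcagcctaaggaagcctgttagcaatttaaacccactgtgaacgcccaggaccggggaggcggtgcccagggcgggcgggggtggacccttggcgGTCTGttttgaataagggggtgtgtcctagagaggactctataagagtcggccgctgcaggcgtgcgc
Ltbp1: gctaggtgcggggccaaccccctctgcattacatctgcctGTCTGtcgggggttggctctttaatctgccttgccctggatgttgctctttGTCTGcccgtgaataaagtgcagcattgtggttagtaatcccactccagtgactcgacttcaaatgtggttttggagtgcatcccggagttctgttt
Ltbp3: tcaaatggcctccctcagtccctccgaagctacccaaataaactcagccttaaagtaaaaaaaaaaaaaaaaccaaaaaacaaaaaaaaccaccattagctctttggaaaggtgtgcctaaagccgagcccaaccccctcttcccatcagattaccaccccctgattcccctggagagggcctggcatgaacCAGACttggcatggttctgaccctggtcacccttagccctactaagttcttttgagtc
Id2 held GGCGCC at 231 to 226 and GACGCC at 22 to 17 bases before the start. In Id3, GGCGTC at 172 to 167 shared its last base with CAGAC at 167 to 163, and GTCTG stood at 68 to 64. Ltbp1 held GTCTG at 148 to 144 and 97 to 93, inside the TLE3 region, and Ltbp3 held CAGAC at 58 to 54. In the 250 bases before the start, on either strand, CAGAC was found in 22 of 45 member promoters (48.9%), against 42.2% of 32851 promoters. GGCGNC was found in 30 (66.7%, against 30.7%), and its special case GGCGCC, which reads the same on both strands, in 10 (22.2%, against 9.59%). A match describes these letters and does not show a SMAD site.

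Depots were compared gene by gene on the log2 ratio of summed scaled reads, less that of the median gene among the 9100 genes whose 3 TLE3 libraries averaged at least 30 scaled reads. This relative ratio was used because the median gene's BAT over eWAT ratio stood at -1.54 on the authors' scale, its BAT over iWAT ratio at -1.49 and its eWAT over iWAT ratio at 0.16. A gene was called where it lay at least 2-fold from the median gene and its counting interval did not include the median gene. The comparisons are not independent, since any pair of them shares a library. Of the 50 members, 35 passed the filter. For BAT over eWAT, 4 were called higher (11.4%, against 11.4% of all genes past the filter) and 5 lower (14.3%, against 13.1%). For BAT over iWAT, 6 were called higher (17.1%, against 14.1%) and 6 lower (17.1%, against 12.4%). For eWAT over iWAT, 0 were called higher (against 5.3%) and 1 lower (2.86%, against 9.04%). The shares of the BAT comparisons lay near those of all genes. The eWAT over iWAT shares lay below them, with 1 of 35 members called, and this was not tested. Of the members called lower in BAT, all but Tgfbr1 had under 30 scaled reads in BAT and passed the filter through the white depots. Their BAT calls are therefore given as a description. The median relative ratio of the 35 was 0.30 for BAT over eWAT, 0.01 for BAT over iWAT and -0.12 for eWAT over iWAT, where all genes have 0 by construction.

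The split of the BAT calls depended on the scaling. On the authors' own scale, 0 members were higher and 20 lower for BAT over eWAT (all genes: 0.901% and 72.5%), and 0 higher and 21 lower for BAT over iWAT (0.846% and 68.1%). Scaled on the regions listed in all 3 depots, 0 were higher and 12 lower for BAT over eWAT (all genes: 3.01% and 38.3%), and 1 higher and 15 lower for BAT over iWAT (3.42% and 39.7%). For eWAT over iWAT the authors' scale gave 3 higher and 1 lower (7.81% and 6.85%). Except where a value is given on the authors' scale or as deposited, every BAT direction below is therefore relative to the median gene. For single regions it is relative to the median region.

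**Figure D2:**
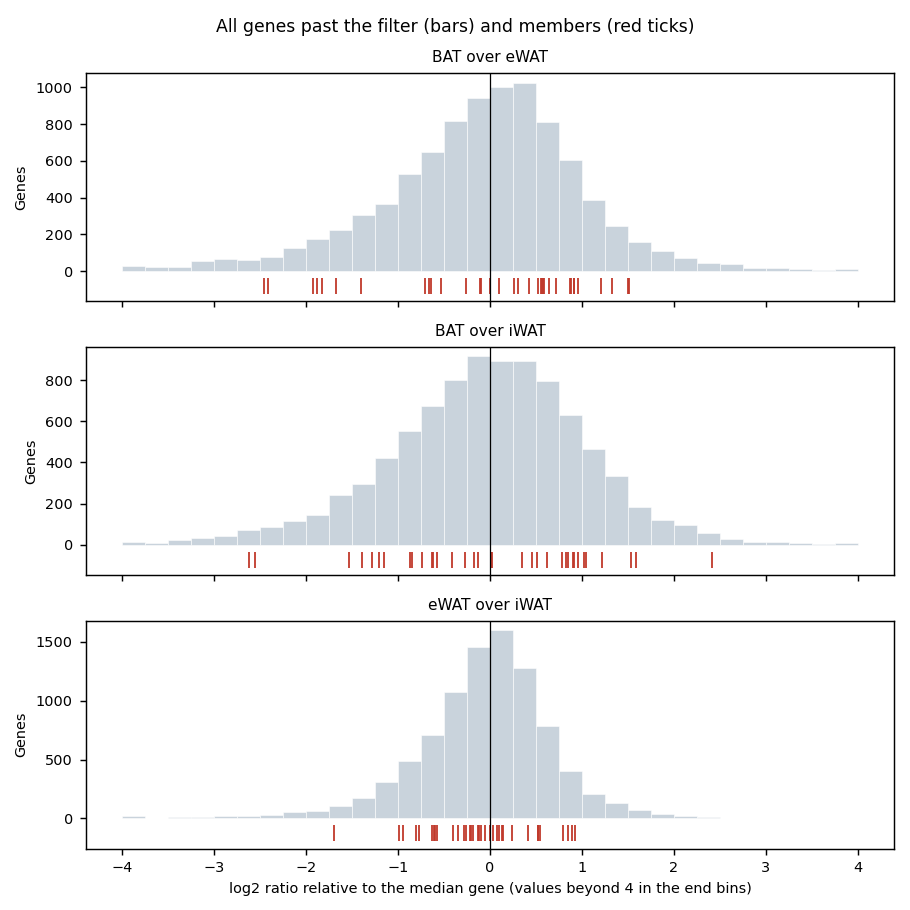
Relative log2 ratio of summed TLE3 signal (x axis) for the 9100 genes past the filter (bars, number of genes per bin) and for the 35 members past it (red ticks), in 3 comparisons. The members spread over the range of the other genes, and lie at medians of 0.30 for BAT over eWAT, 0.01 for BAT over iWAT and -0.12 for eWAT over iWAT.

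Ligand genes held 46 regions in 15 of 17 members, and 8 had a listed region in BAT, 14 in eWAT and 13 in iWAT. Gdf10, a BMP3-related ligand, carried the highest signal of the ligands in iWAT. Its 10 regions summed to 108 scaled reads in BAT, 292 in eWAT, 504 in iWAT and 23.4 in the input. All 10 were listed in iWAT, 6 in eWAT and 1 in BAT. The relative ratio was -0.95 for eWAT over iWAT (-1.13 to -0.77), just short of a call, and 0.10 for BAT over eWAT, with -0.74 for BAT over iWAT. Its strongest region lay in intergenic sequence at chr14:34694733-34694963, 41.9 kb upstream, with 13.8 in BAT, against 55.6 in eWAT and 84.1 in iWAT. The Gdf10 region 28.9 kb upstream had 8.30 scaled reads in BAT, against 3.53 in eWAT and 78.3 in iWAT, and another 26.7 kb upstream had 5.53 in BAT, against 14.1 in eWAT and 82.0 in iWAT. These 2 regions were picked after their values were seen and passed the filter of 30 scaled reads through iWAT, so their values are given as a description.

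Bmp6, a ligand known for its control of iron through hepcidin, had the highest ligand signal in BAT and in eWAT. Its 8 regions summed to 188 scaled reads in BAT, 406 in eWAT, 272 in iWAT and 7.80 in the input. It was not called in any comparison, with relative ratios of 0.43 for BAT over eWAT, 0.96 for BAT over iWAT and 0.42 for eWAT over iWAT. The intronic region at chr13:38442706-38442936, 5.24 kb from the start, had 24.9 in BAT, against 152 in eWAT and 49.4 in iWAT. There eWAT was called higher than iWAT, at 1.50 (1.13 to 1.88), and BAT lower than eWAT, at -1.15 (-2.30 to -0.19). BAT had under 30 scaled reads at this region, so its call is given as a description. A second intronic region at chr13:38469367-38469597 had 63.6 in BAT, against 99.8 in eWAT and 94.1 in iWAT and was not called.

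Gdf5, a ligand of joint development, and Bmp8b, which is induced in brown fat and known to raise its thermogenic response, were called higher in BAT than in both white depots. Gdf5 had 96.8 scaled reads in BAT, 112 in eWAT, 132 in iWAT and 7.16 in the input. Its relative ratio was 1.33 (0.74 to 1.87) for BAT over eWAT, with 1.04 (0.49 to 1.56) for BAT over iWAT, but on the authors' scale it was -0.21 against eWAT and -0.45 against iWAT. With the strongest region alone, Gdf5 was not called, at 0.83 against eWAT and 0.50 against iWAT, and against iWAT it fell short within 10 kb too, at 0.97. The promoter region of Gdf5, 0.11 kb upstream, had 33.2 in BAT, against 15.9 in eWAT and 15.8 in iWAT and was listed in BAT alone. The stronger intergenic region of Gdf5 at chr2:155775199-155775429 had 63.6 in BAT, against 96.3 in eWAT and 116 in iWAT. Bmp8b had 1 intronic region, at chr4:122784189-122784419, with 41.5 in BAT, 42.4 in eWAT, 57.3 in iWAT and 3.25 in the input. Its relative ratio was 1.51 (0.56 to 2.37) for BAT over eWAT, with 1.02 (0.14 to 1.81) for BAT over iWAT, but on the authors' scale it was -0.03 against eWAT and -0.47 against iWAT. Against iWAT its call ended within 10 kb, at 0.95, and with each gene's strongest region alone, at 0.90. Scaled on the strongest 25% of regions, neither gene was called against iWAT, with 0.99 for Gdf5 and 0.97 for Bmp8b. As deposited, Bmp8b stood level in BAT and eWAT, where the median gene was lower in BAT.

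Bmp8a, the near-identical neighbour of Bmp8b, showed the other pattern. Its intronic region at chr4:123017585-123017815 had 2.77 scaled reads in BAT (1 read), 44.2 in eWAT, 47.8 in iWAT and 1.30 in the input. It was called lower for BAT over iWAT, at -2.62 (-7.94 to -0.11), and not for BAT over eWAT, at -2.46 (-7.79 to 0.08). Bmp8a passed the filter, at a mean of 31.6, only through the white depots, so these values are given as a description. The sources used here do not say how reads that match both copies were treated, so the values of this pair are uncertain.

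Of the TGF-β genes proper, Tgfb2 was called lower in BAT than in both white depots and Tgfb3 higher in BAT than in iWAT, and Tgfb1 did not pass the filter. Tgfb2 had 5 regions with 13.8 scaled reads in BAT (5 reads), 152 in eWAT, 94.6 in iWAT and 9.10 in the input. Its relative ratio was -1.92 (-3.56 to -0.67) for BAT over eWAT, with -1.29 (-2.93 to -0.04) for BAT over iWAT, the second of which turned to 0.56 with regions within 10 kb. The call against eWAT ended there as well, at -1.08, and the call against iWAT ended with regions of at least 30 scaled reads in the listing library, at -0.73, and with the strongest region alone, at -1.99 (-7.32 to 0.55). The strongest Tgfb2 region, intronic at chr1:188504561-188504791, had 2.77 in BAT, against 60.1 in eWAT and 28.4 in iWAT. Tgfb3 had 1 region, in the 3′ untranslated region at chr12:87397973-87398203, with 30.4 in BAT, 59.2 in eWAT, 28.4 in iWAT and 1.30 in the input. It was called for BAT over iWAT, at 1.59 (0.50 to 2.54), which turned to -0.39 with regions within 100 kb. The Tgfb3 call also ended on the authors' scale, at 0.10, and scaled on the regions listed in all 3 depots, at 0.76. Tgfb1, the main TGF-β of most tissues, had an intronic region with 5.53 in BAT, against 32.7 in eWAT and 44.7 in iWAT.

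Of the other ligands, Inhbb alone was called. Gdf15, a stress-induced cytokine, had 52.5 scaled reads in BAT, against 106 in eWAT and 161 in iWAT. Its exonic region at chr8:73153817-73154047 had 24.9 in BAT, against 27.4 in eWAT and 70.4 in iWAT, where eWAT was called lower than iWAT, at -1.48 (-2.09 to -0.91). The exonic region passed the filter of 30 scaled reads through iWAT, so its call is given as a description. Bmp3, a ligand abundant in bone, had 49.8 in BAT, against 121 in eWAT and 137 in iWAT. Inhbb, which encodes the activin B subunit, had 16.6 in BAT (6 reads), 75.1 in eWAT, 104 in iWAT and 4.55 in the input. It was called lower for BAT over iWAT, at -1.15, with an interval from -2.62 to just under 0. The call ended with regions of at least 30 scaled reads in the listing library, at -1.31 (-3.21 to 0.08), and within 10 kb, where BAT had 0 reads. Bmp2 and Bmp4, ligands that commit stem cells to the fat lineage, did not pass the filter. Bmp2 had 0 in BAT, against 39.7 in eWAT and 9.98 in iWAT. With BAT set at its floor of 3 reads, Bmp2 was at least 4.79-fold lower in BAT than in eWAT on the authors' scale. On that scale the median gene was also lower in BAT, at a log2 ratio of -1.54. Bmp4 had 2.77 in BAT, against 21.2 in eWAT and 15.2 in iWAT, and Gdf6 had 24.9 in BAT, against 23.8 in eWAT and 40.5 in iWAT. Bmp5 was the one ligand listed in BAT alone, with 19.4 in BAT, against 7.95 in eWAT and 11.6 in iWAT.

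**Figure D3:**
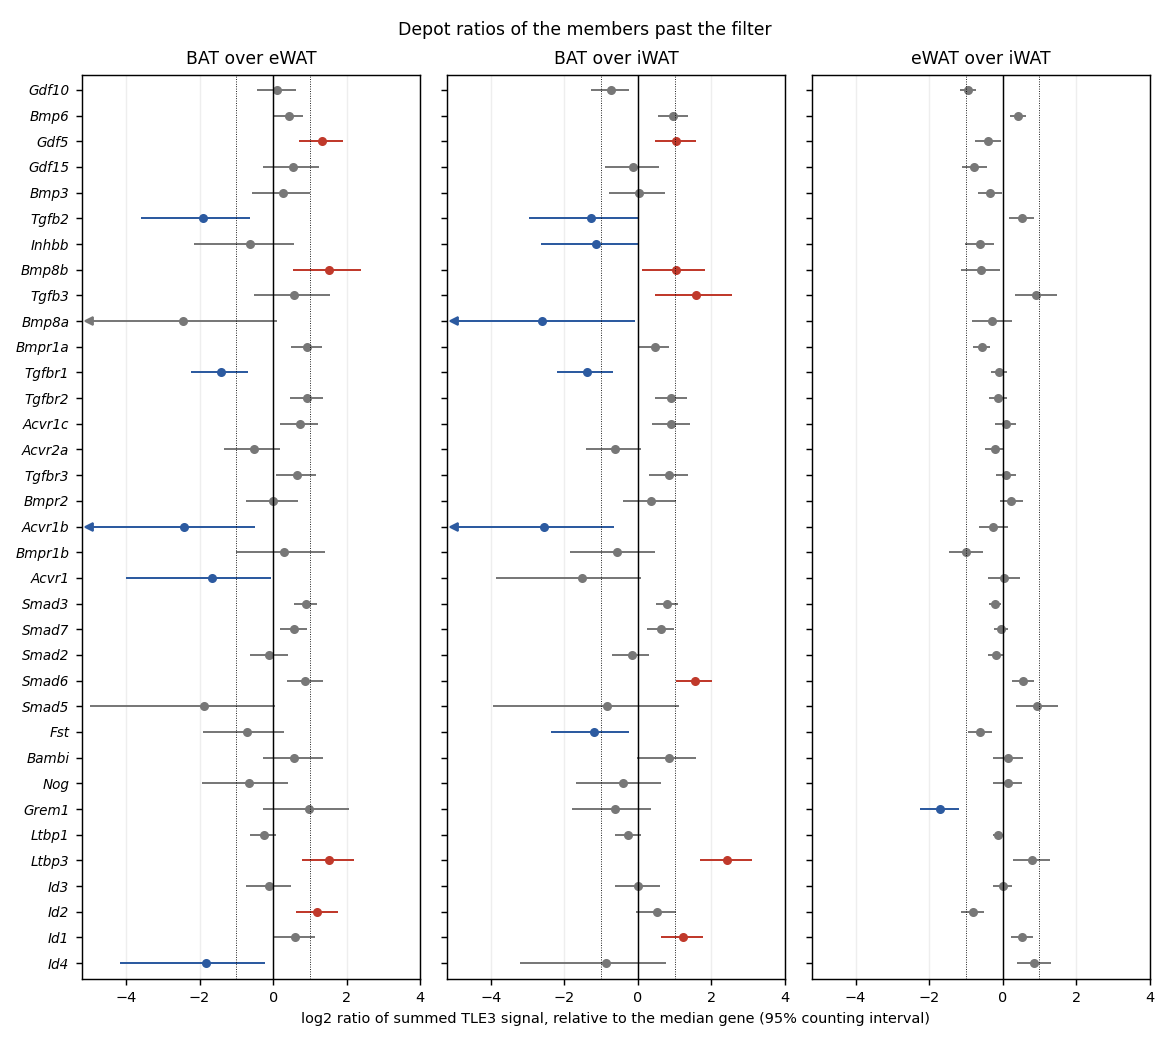
Relative log2 ratio of summed TLE3 signal for the 35 members past the filter (rows, grouped by role) in 3 comparisons (panels), with lines for the 95% counting interval and arrows where it runs past the axis. Red marks members called higher and blue members called lower, dotted lines mark 2-fold, and for eWAT over iWAT only Grem1 is called, at -1.69.

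Receptor genes held 61 regions, the most of any role, in 11 of 13 members. In BAT 7 of these genes had a listed region, in eWAT 10 and in iWAT 11. Bmpr1a, a type I BMP receptor, was the receptor with the highest BAT signal, at 177 scaled reads, beside 272 in eWAT, 362 in iWAT and 13.7 in the input. It was not called, at 0.92 (0.51 to 1.31) for BAT over eWAT, with 0.46 for BAT over iWAT. The Bmpr1a region at chr14:35325208-35325438, annotated as exon, lay 9.59 kb upstream of the Bmpr1a start. It had 33.2 in BAT, against 36.2 in eWAT and 79.4 in iWAT, and there eWAT was called lower than iWAT, at -1.25 (-1.79 to -0.74).

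Of the receptors of TGF-β itself, the type I gene was called lower in BAT and the type II gene was not called. Tgfbr1, the type I receptor, had 11 regions with 47.0 scaled reads in BAT (17 reads), 362 in eWAT, 346 in iWAT and 18.2 in the input. It was called lower in BAT, at -1.41 (-2.20 to -0.71) against eWAT and -1.39 (-2.18 to -0.70) against iWAT, and 1 of its regions was listed in BAT against 9 in eWAT and 8 in iWAT. Within 100 kb both calls ended, at -0.48 against eWAT and -0.42 against iWAT, and the call against iWAT ended with the strongest region alone, at -1.01 (-3.31 to 0.59). Its strongest region, intergenic at chr4:47363988-47364218, had 8.30 in BAT, against 76.8 in eWAT and 43.1 in iWAT. Tgfbr2, the type II receptor, had 163 in BAT, 251 in eWAT, 244 in iWAT and 11.1 in the input. It was not called, at 0.92 against eWAT and 0.91 against iWAT. The Tgfbr2 region 2.93 kb upstream, intergenic at chr9:116087296-116087526, had 63.6 in BAT, against 80.4 in eWAT and 60.4 in iWAT. That region was called higher in BAT, at 1.12 (0.40 to 1.80) against eWAT and 1.60 (0.88 to 2.25) against iWAT, relative to the median region.

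Among the type I activin and BMP receptor genes, Acvr1b and Acvr1 were called lower in BAT and Acvr1c was not called. Acvr1c, a type I receptor enriched in adipocytes and known to restrain lipolysis, had 116 scaled reads in BAT, 205 in eWAT, 173 in iWAT and 6.50 in the input. The gene was not called, at 0.72 for BAT over eWAT, with 0.91 for BAT over iWAT, but its intronic region at chr2:58206862-58207092, with 55.3 in BAT, against 74.2 in eWAT and 59.4 in iWAT, was called higher in BAT, at 1.04 (0.26 to 1.75) against eWAT and 1.42 (0.66 to 2.12) against iWAT. Acvr1b, the widely expressed type I activin receptor, had 5.54 in BAT (2 reads), 85.7 in eWAT, 91.4 in iWAT and 7.15 in the input. It was called lower in BAT, at -2.42 (-5.48 to -0.52) against eWAT and -2.56 (-5.62 to -0.68) against iWAT. With its strongest region alone both calls ended, at -2.48 (-7.81 to 0.07) against eWAT and -1.82 (-7.15 to 0.73) against iWAT. Acvr1b carried its strongest region in an intron, at chr15:101006799-101007029, with 2.77 in BAT, against 41.5 in eWAT and 25.2 in iWAT. Acvr1, a type I receptor for several BMPs, had 8.30 in BAT (3 reads), 76.8 in eWAT, 67.3 in iWAT and 6.50 in the input, and was called lower for BAT over eWAT only, at -1.67 (-3.98 to -0.08). That call ended within 100 kb, at -0.90, and with the strongest region alone, at -0.34. The strongest region of Acvr1, intronic at chr2:58371025-58371255, had 8.30 in BAT, against 28.3 in eWAT and 25.2 in iWAT. The BAT value at both genes was close to its floor of 3 reads.

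The remaining receptors were not called. Acvr2a, a type II activin receptor, had 49.8 scaled reads in BAT, against 208 in eWAT and 216 in iWAT, with a strongest intronic region at chr2:48702556-48702786. Tgfbr3, which encodes the coreceptor betaglycan, had 105 in BAT, against 196 in eWAT and 164 in iWAT. Its intronic region at chr5:107713091-107713321 had 41.5 in BAT, against 56.5 in eWAT and 53.6 in iWAT and was called higher in BAT, at 1.02 (0.10 to 1.84) against eWAT and 1.16 (0.27 to 1.94) against iWAT. Bmpr2, the type II BMP receptor, had 58.1 in BAT, against 169 in eWAT and 128 in iWAT. Bmpr1b, another type I BMP receptor, had 22.1 in BAT, against 52.1 in eWAT and 92.5 in iWAT and lay just short of a call for eWAT over iWAT, at -0.99 (-1.44 to -0.56). Acvr2b did not pass the filter, with 0 in BAT, against 7.06 in eWAT and 19.97 in iWAT.

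SMAD genes carried the highest BAT signal of the 6 roles, with 827 scaled reads in BAT, 1696 in eWAT, 1533 in iWAT and 74.2 in the input over 30 regions of 7 genes. In BAT 4 of them had a listed region, in eWAT 7 and in iWAT 6. Smad3, the effector of TGF-β and activin signals, had the highest BAT sum of all members. Its 7 regions had 354 in BAT, 557 in eWAT, 576 in iWAT and 24.1 in the input. The gene was not called, at 0.88 (0.60 to 1.16) for BAT over eWAT, 0.79 (0.51 to 1.05) for BAT over iWAT and -0.21 for eWAT over iWAT. The strongest Smad3 region, intronic at chr9:63564034-63564264 and 41.7 kb downstream of the start, had 116 in BAT, against 176 in eWAT and 166 in iWAT.

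Regions within Smad3 pointed in different directions. The intronic region 37.2 kb downstream had 52.5 scaled reads in BAT, against 27.4 in eWAT and 12.6 in iWAT, and was picked after its values were seen. The intronic region at chr9:63559485-63559715 had 74.7 in BAT, against 101 in eWAT and 67.3 in iWAT and was called higher in BAT, at 1.03 (0.37 to 1.65) against eWAT and 1.68 (1.02 to 2.28) against iWAT. The intergenic region at chr9:63628304-63628534, 22.6 kb upstream, had 8.30 in BAT, against 80.4 in eWAT and 101 in iWAT and was called lower in BAT, at -1.81 (-4.12 to -0.22) against eWAT and -2.09 (-4.38 to -0.52) against iWAT. This upstream region passed the filter through the white depots, so its calls are given as a description. These 3 regions belong to 1 gene and are not replicates of each other. Between the white depots, the intronic region at chr9:63591765-63591995 had 82.1 in eWAT and 151 in iWAT, a call at the limit of 2-fold (-1.35 to -0.66). The summed value of Smad3 thus covered regions that were higher and regions that were lower in BAT.

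**Figure D4:**
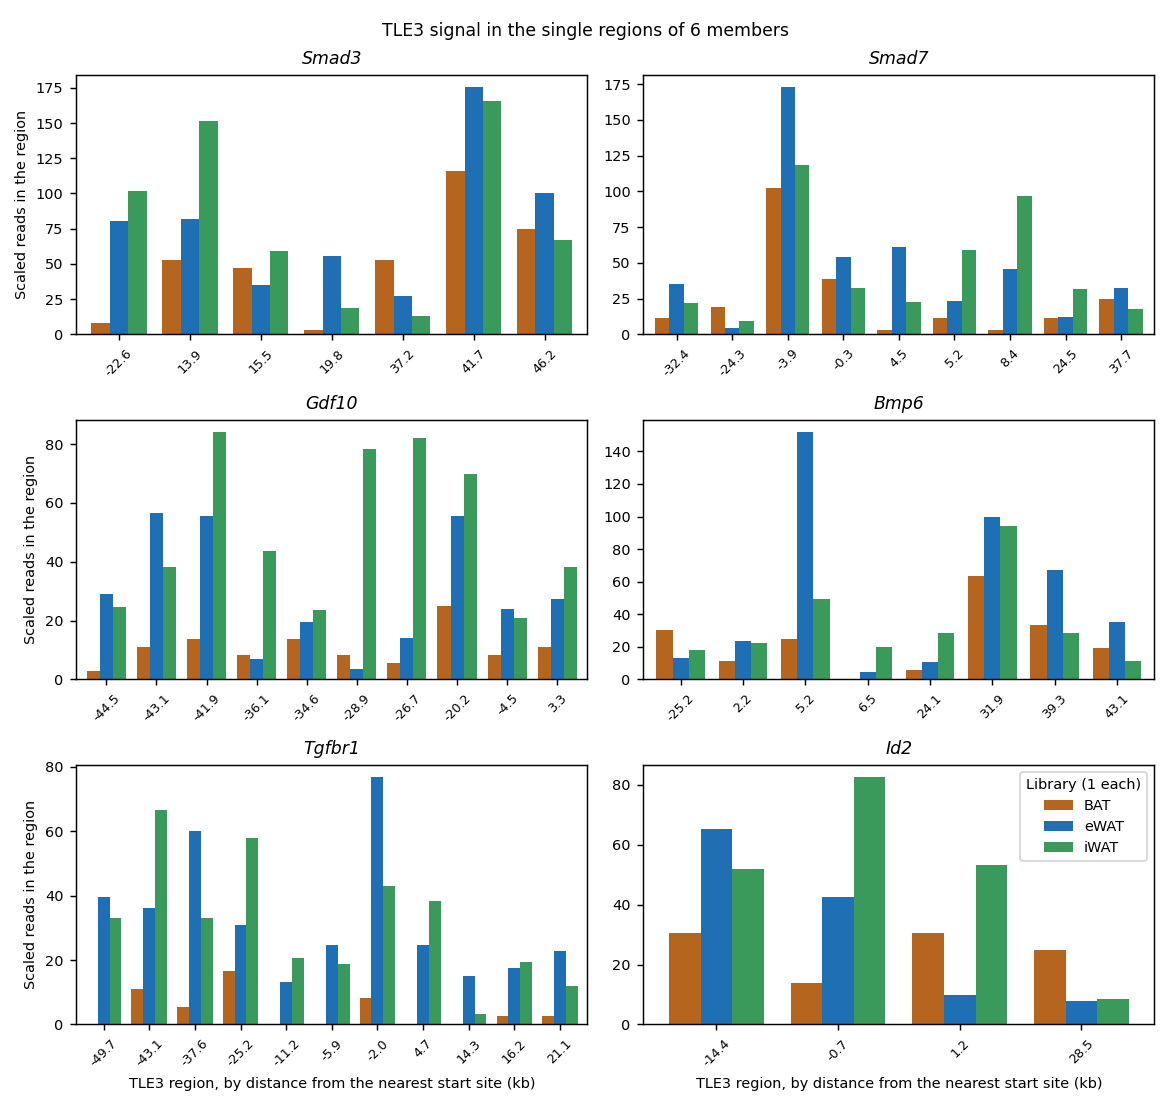
Scaled reads in each TLE3 region of Smad3, Smad7, Gdf10, Bmp6, Tgfbr1 and Id2 (panels), with regions ordered by distance from the nearest start site in kb (x axis) and 1 bar per library. At Smad3 the region at 37.2 kb is highest in BAT (52.5), and that at -22.6 kb is near the BAT floor of 3 reads (8.30).

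Smad6 and Smad7 encode the inhibitory SMADs, and Smad6 neighbours Smad3 on chromosome 9. Smad6 had 133 scaled reads in BAT, 210.2 in eWAT, 128 in iWAT and 13.7 in the input. It was called higher for BAT over iWAT, at 1.54 (1.06 to 1.99). It was not called for BAT over eWAT, at 0.87 (0.40 to 1.33), or eWAT over iWAT, at 0.55. On the authors' scale the BAT over iWAT call of Smad6 ended, at 0.05 (-0.43 to 0.50). Scaled on the regions listed in all 3 depots, Smad6 was at 0.71 and not called. Its intronic region at chr9:63837657-63837887 had 41.5 in BAT, against 82.1 in eWAT and 51.5 in iWAT and was called higher for BAT over iWAT, at 1.21 (0.32 to 2.00). Smad7 had 9 regions with 224 in BAT, 442 in eWAT, 408 in iWAT and 24.1 in the input, and was not called, at 0.56 for BAT over eWAT, with 0.62 for BAT over iWAT. An intergenic region of Smad7, 3.90 kb upstream, had 102 in BAT, against 173 in eWAT and 118 in iWAT and was called higher for BAT over iWAT, at 1.32 (0.77 to 1.82). An intronic one 8.36 kb downstream had 2.77 in BAT, against 45.9 in eWAT and 96.7 in iWAT.

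Of the receptor-activated SMADs besides Smad3, Smad2 alone carried a high signal. Smad2, the other effector of TGF-β and activin, had 111 scaled reads in BAT, 346 in eWAT, 351 in iWAT and 5.85 in the input, and lay close to the median gene in each comparison, at -0.11 for BAT over eWAT, -0.18 for BAT over iWAT and -0.18 for eWAT over iWAT. Its intergenic region 18.1 kb upstream had 71.9 in BAT, against 214 in eWAT and 201 in iWAT, the highest single value of any member region within 50 kb in both white depots. The BMP-activated SMADs had few reads in BAT, but none of them was called lower there relative to the median gene. Smad5 had 5.54 in BAT, against 59.2 in eWAT and 27.9 in iWAT and was not called, while Smad1 had 0 in BAT, against 48.6 in eWAT and 16.3 in iWAT and Smad9 had 0 in BAT, against 33.6 in eWAT and 25.8 in iWAT, and neither passed the filter. With BAT at its floor of 3 reads, Smad1 was at least 5.85-fold and Smad9 at least 4.05-fold lower in BAT than in eWAT on the authors' scale, where the median gene was also lower in BAT.

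All 4 antagonist genes passed the filter, and only Bambi among them had a listed region in BAT. Grem1, a secreted BMP antagonist, gave the one call between the white depots. It had 24.9 scaled reads in BAT, 37.1 in eWAT, 107 in iWAT and 6.51 in the input, and eWAT was lower than iWAT, at -1.69 (-2.21 to -1.21). Its call held in all 9 settings that gave it a value, between -1.70 and -1.53. These settings had little room to change it, since the scalings moved the median gene of this comparison by at most 0.16. Grem1 also had no region beyond 50 kb. With a mean of at least 100 Grem1 was not tested, since its mean was 56.4. The intergenic region of Grem1 at chr2:113605259-113605489 had 19.4 in BAT, against 23.0 in eWAT and 61.5 in iWAT, and was lower in eWAT than in iWAT, at -1.54 (-2.21 to -0.92). That region passed the filter through iWAT, so its value is given as a description. Fst encodes follistatin, which traps activins. It had 24.9 in BAT (9 reads), 118 in eWAT, 161 in iWAT and 9.76 in the input and was called lower for BAT over iWAT, at -1.20 (-2.35 to -0.26), a call that ended within 10 kb, at -0.36. The intergenic Fst region at chr13:115278387-115278617 had 8.30 in BAT, against 46.8 in eWAT and 78.3 in iWAT. Nog, which encodes the BMP antagonist noggin, had 22.1 in BAT, against 102 in eWAT and 82.5 in iWAT and was not called, and its strongest region was intergenic at chr11:89156993-89157223. Bambi, a pseudoreceptor that dampens TGF-β signals, had 47.0 in BAT, against 91.8 in eWAT and 74.1 in iWAT and was not called either.

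Latent TGF-β binding proteins hold the inactive ligand in the matrix. Ltbp1 had the highest sums of any member in both white depots, with 232 scaled reads in BAT, 808 in eWAT, 786 in iWAT and 32.5 in the input. It was not called, at -0.26 for BAT over eWAT, -0.27 for BAT over iWAT and -0.12 for eWAT over iWAT. The intronic region of Ltbp1 at chr17:75417542-75417772 had 94.0 in BAT, against 184 in eWAT and 153 in iWAT. Another one in an intron, at chr17:75567948-75568178, had 19.4 in BAT, against 99.8 in eWAT and 119 in iWAT and was called lower for BAT over iWAT, at -1.09 (-2.42 to -0.03). The promoter region of Ltbp1 had 5.53 in BAT, 41.5 in eWAT, 99.3 in iWAT and 8.46 in the input. It was called lower for BAT over iWAT, at -2.64 (-5.70 to -0.77), and for eWAT over iWAT, at -1.38 (-1.87 to -0.91), and both printed GTCTG matches lie in this region. The promoter region and the one at chr17:75567948-75568178 had under 30 scaled reads in BAT and passed the filter through the white depots. Their BAT calls are given as a description.

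Ltbp3, which is needed for release of latent TGF-β, had the highest BAT ratio of any member past the filter. Its 1 region, in the promoter at chr19:5740380-5740610, had 71.9 scaled reads in BAT, 73.3 in eWAT, 37.8 in iWAT and 5.86 in the input. It was called higher in BAT, at 1.51 (0.81 to 2.16) against eWAT and at 2.42 (1.71 to 3.08) against iWAT. The call against eWAT ended on the authors' scale, at -0.03, and scaled on the regions listed in all 3 depots, at 0.72. The ratio against iWAT stayed positive under each scaling, but its call ended on the authors' scale, at 0.93. Over iWAT, BAT was higher as deposited too. Ltbp4 had 5.53 in BAT, against 53.0 in eWAT and 30.5 in iWAT. Ltbp2, which does not bind latent TGF-β despite its name, had 0 in BAT, against 19.4 in eWAT and 6.31 in iWAT. Neither passed the filter.

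Id genes encode inhibitors of basic helix-loop-helix factors and are standard targets of BMP-activated SMADs. All 4 passed the filter, with a listed region in BAT at 2, in eWAT at 4 and in iWAT at 3. Id1 had 1 intergenic region, at chr2:152567393-152567623 and 5.52 kb downstream of its start, with 96.8 scaled reads in BAT, 187 in eWAT, 117 in iWAT and 6.51 in the input. It was called higher for BAT over iWAT, at 1.22 (0.66 to 1.74), but was -0.27 on the authors' scale. Id2 had 99.6 in BAT, 125 in eWAT, 196 in iWAT and 7.80 in the input. It was called higher for BAT over eWAT, at 1.20 (0.63 to 1.74), but was -0.33 on the authors' scale, 0.33 with the strongest region alone and 0.89 with regions of at least 30 scaled reads in the listing library, and was not called for eWAT over iWAT, at -0.81 (-1.10 to -0.53).

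The regions of Id2 differed among themselves. The promoter region, upstream of the sequence shown, had 13.8 scaled reads in BAT, against 42.4 in eWAT and 82.5 in iWAT. The intronic region 1.18 kb downstream had 30.4 in BAT, against 9.71 in eWAT and 53.1 in iWAT, and was picked after its values were seen. The strongest one, intergenic at chr12:25795284-25795514, had 30.4 in BAT, against 65.4 in eWAT and 52.0 in iWAT. Id3 had 77.4 in BAT, against 241 in eWAT and 216 in iWAT and lay at the median gene, at -0.10 for BAT over eWAT, with 0.01 for BAT over iWAT. Its strongest region, intergenic at chr4:135673107-135673337, had 33.2 in BAT, against 70.6 in eWAT and 56.2 in iWAT. Its promoter region had 16.6 in BAT, against 53.0 in eWAT and 77.3 in iWAT. Id4 had 8.30 in BAT (3 reads), 85.7 in eWAT, 42.6 in iWAT and 4.56 in the input. It was called lower for BAT over eWAT, at -1.83 (-4.13 to -0.24), which turned to 0.09 with regions within 100 kb. The Id4 call also ended with the strongest region alone, at -1.86 (-4.93 to 0.06), and within 10 kb, where the gene did not pass the filter. The strongest Id4 region, at chr13:48323233-48323463 and annotated as intron, lay 33.4 kb upstream of the Id4 start. It had 5.53 in BAT, against 53.9 in eWAT and 33.6 in iWAT.

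Of the 178 member regions, 70 passed the filter of a mean of at least 30 scaled reads. On the authors' scale the median region past the filter stood at -1.46 for BAT over eWAT, -1.525 for BAT over iWAT and 0.12 for eWAT over iWAT. Other scalings were not tried on single regions. Relative to the median of the 23211 regions past the filter, 13 member regions were called higher in BAT than in eWAT (18.6%, against 15.1% of all regions) and 7 lower (10%, against 13.7%). For BAT over iWAT, 18 were called higher (25.7%, against 18.4%) and 9 lower (12.9%, against 13.4%). For eWAT over iWAT, 2 were called higher (2.86%, against 6.6%) and 14 lower (20%, against 14.6%). The 14 included regions of Gdf10, Grem1, Bmpr1a, Gdf15 and Inhbb, whose intergenic region at chr1:121354558-121354788 had 38.9 in eWAT and 76.7 in iWAT. Those of Gdf10, Grem1 and Gdf15 passed the filter through iWAT. The regions were not independent, since several belonged to 1 gene.

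Other genes of the pathway, 79 in 4 lists, are given for comparison. A listed region was present at 32 of them in BAT (against 21.4% of all genes), 60 in eWAT (against 46%) and 54 in iWAT (against 42.4%). Of the 53 past the filter, BAT was called higher than eWAT at 5 (against 11.4% of all genes) and lower at 3 (against 13.1%). BAT was called higher than iWAT at 3 (against 14.1%) and lower at 5 (against 12.4%), while eWAT was called higher than iWAT at 0 (against 5.3%) and lower at 3 (against 9.04%). Of the 16 other ligands 7 had a region, led by Mstn (myostatin), with 66.4 scaled reads in BAT, against 83.0 in eWAT and 100.4 in iWAT. Mstn was called higher for BAT over eWAT, at 1.21. Bmp10, a ligand of the heart, had 8.30 in BAT, against 121 in eWAT and 119 in iWAT and was called lower in BAT, at -2.33 against eWAT and -2.35 against iWAT. Its BAT value rested on 3 reads and it passed the filter through the white depots, so these calls are given as a description. Lefty2, a nodal antagonist of the family, had 38.7 in BAT, against 102 in eWAT and 75.7 in iWAT.

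Extracellular modulators were the list with the most signal. Bmper, a BMP-binding protein, had 335 scaled reads in BAT, against 1147 in eWAT and 1010.1 in iWAT. Fstl1, a follistatin-like protein, had 423 in BAT, against 966 in eWAT and 1172 in iWAT, and Thbs1, a matrix protein known to activate latent TGF-β, had 158 in BAT, against 436 in eWAT and 321 in iWAT. None of these 3 was called. Of the 20 intracellular regulators 16 had a region, led by Pmepa1, a TGF-β-induced inhibitor of the pathway, with 348 in BAT, against 545 in eWAT and 534 in iWAT. Nedd4l, a ubiquitin ligase for SMADs, had 105 in BAT, against 348 in eWAT and 404 in iWAT, and Ppm1a, a SMAD phosphatase, had 111 in BAT, against 390.3 in eWAT and 260 in iWAT. Of the 13 targets 12 had a region, with Ctgf, a matrix-associated growth factor, at 113 in BAT, against 515 in eWAT and 365 in iWAT. Zeb2, a repressor of epithelial genes, had 149 in BAT, against 402 in eWAT and 429 in iWAT, and Tgfbi, a matrix protein, had 141 in BAT, against 375 in eWAT and 315 in iWAT. These target genes were not called either.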

How the data were processed

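TLE3 ChIP-seq was measured in 3 libraries, 1 per depot, with 1 input library from iWAT. The deposited tables list regions of 230 bp with their nearest gene, annotation and distance, and a signal for each library, per the file headers; the signal is a read number that the authors scaled to a common total. STAR, HOMER and mm9 are named by the submitters' processing notes, while peak calling settings are not given in the sources used here. Every signal value was a whole multiple of 1 read (100% within 0.1 read), which gave the reads behind each value, and the scale of 10 M reads is assumed. The 3 lists were joined by region identifier, and 0 columns were left unmapped.

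A gene's regions within 50 kb were summed. Log2 ratios were set against the median gene past a mean of 30 scaled reads, with exact Clopper-Pearson 95% intervals on reads, and shares carry Wilson intervals. Calls needed 2-fold and an interval excluding the median gene. No p-value was computed, since each group has 1 library. The ratio and interval steps were tested on simulated data. All 50 members matched RefSeq's GRCm38.p6 gene table by symbol, and 35 its promoter table. The members and gene lists were chosen with earlier results of these data known. Values were given for the 4 members of highest mean in each role, every called member, members with no region, and their strongest or called regions of a mean of at least 50. Regions at 28.9 and 26.7 kb of Gdf10, 37.2 kb of Smad3, 8.36 kb of Smad7 and 1.18 kb of Id2, the promoter regions and the members of lower signal were named after their values were seen. Alternatives covered the scaling, distance limit, filter, list threshold, list length, merging of overlapping regions and use of the strongest region only. Python 3.11.15, pandas 2.3.3, numpy 2.4.6, SciPy 1.17.1 and matplotlib 3.10.9 were used.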

Additional observations from a re-analysis of the deposited data

Results flagged for a closer look

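Bmp7 and Inhba, members with no region within 50 kb, had strong TLE3 signal farther away, in data outside the main measurement and above the input. The strongest region assigned to Bmp7, 128.773 kb from its start at chr2:172636934-172637164, had 41.5 scaled reads in BAT, 148 in eWAT, 169 in iWAT and 9.11 in the input. The strongest of 17 regions assigned to Inhba, 81.754 kb from its start at chr13:16021815-16022045, had 166 in BAT, 185 in eWAT, 201 in iWAT and 9.11 in the input. Whether these regions act on Bmp7 or Inhba was not tested.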

How the results depend on the processing

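No paired analysis was possible because each group has 1 library, and for the same reason no replicate could be left out. Of 102 values for whole comparisons under the alternatives, 70 stayed close to the reported value. Close meant within a fixed fold for counts and inside a 95% interval for medians. For a single member it meant anywhere inside its counting interval, which is wide where BAT has few reads. Merging overlapping regions removed 95 of 69599 regions and could change little, and all its values stayed close. Of 736 values for single members, 580 stayed close, 146 moved and 10 turned in direction. A turn was counted for called members only, so uncalled members that changed sign are among the values that stayed close or moved. The authors' scaling and the regions listed in all 3 depots moved the BAT comparisons most. Their median relative ratios were -1.24 and -0.49 for BAT over eWAT and -1.48 and -0.82 for BAT over iWAT. With these scalings, members called for BAT over eWAT were 0 and 0 higher and 20 and 12 lower, and for BAT over iWAT 0 and 1 higher and 21 and 15 lower. Of all genes, 72.5% and 38.3% were then lower for BAT over eWAT, and 68.1% and 39.7% for BAT over iWAT. The authors' scaling gave 3 higher for eWAT over iWAT. Among called members it also turned Gdf5 (-0.21 for BAT over eWAT, -0.45 for BAT over iWAT), Bmp8b (-0.031 and -0.47), Ltbp3 (-0.028 for BAT over eWAT), Id2 (-0.33 for BAT over eWAT) and Id1 (-0.27 for BAT over iWAT).

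The share of all genes was not computed for the filter, distance and read-threshold settings below. Their counts are therefore not a result about the members. With no filter, 10 members were called higher for BAT over eWAT, 10 for BAT over iWAT and 3 for eWAT over iWAT, and 3 lower for eWAT over iWAT. With a mean of at least 100, 2 were higher and 1 lower for BAT over eWAT, 2 higher and 2 lower for BAT over iWAT, and 0 lower for eWAT over iWAT, since fewer members were tested. With regions of at least 30 scaled reads in the listing library, 1 was higher and 3 lower for eWAT over iWAT. Leaving the BAT library out of the filter, chosen after seeing the data, gave 1 higher there. Within 10 kb, 15 members had a listed region in BAT, 2 were called lower for BAT over eWAT, 3 higher for BAT over iWAT and 4 lower for eWAT over iWAT, and Tgfb2 turned to 0.56 for BAT over iWAT. Within 100 kb, 2 were lower for eWAT over iWAT, and Id4 (0.094 for BAT over eWAT) and Tgfb3 (-0.39 for BAT over iWAT) turned. With equal lists, 22 of the 50 members had a listed region in eWAT (against 4752 of 21900 genes, 21.7%). In iWAT 19 of the 50 had one (against 4225 of 21900, 19.3%). Where not stated, the cause was not tested. Depth limits BAT most: members near 8.30 scaled reads there rest on 3 reads, and a difference below that level was not detectable.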

Other observations

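Several members had strong regions beyond the 50 kb limit. The Smad6 region 53.284 kb from the start, at chr9:63816467-63816697, had 52.5 scaled reads in BAT, 102 in eWAT, 64.1 in iWAT and 3.90 in the input. The Smad3 region 55.318 kb from the start, at chr9:63550368-63550598, had 30.4 in BAT, 99.8 in eWAT, 146 in iWAT and 5.86 in the input. Acvr2a, a type II activin receptor, had 39 regions beyond 50 kb and 7 within it. The strongest of them, at chr2:48589523-48589753, had 122 in BAT, 144 in eWAT, 169 in iWAT and 1.95 in the input. Tgfbr1 had a region 59.035 kb from its start, at chr4:47306944-47307174, with 71.9 in BAT, 193 in eWAT, 180.3 in iWAT and 4.56 in the input, a higher value in BAT than the 47.0 summed over its 11 regions within 50 kb.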
